A study of Mus musculus with 11 samples.

Results

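Kupffer cells are the resident macrophages of the liver and sit inside the sinusoids, where they take up bacteria, dying cells and haemoglobin from blood. The 10 genes described here encode proteins that mark these cells, either on the surface (Clec4f, Vsig4, Timd4, Marco, Folr2, Cd163, Clec1b and Adgre4) or secreted by them (Cd5l and Fcna). They were chosen by name with earlier results of these data known, so setting them against all genes is descriptive only. Each was found once among the 55414 genes of the count table, and all 10 were among the 17038 genes that passed the filter on low counts. Whole-liver RNA came from 11 male mice of the Clec4f-DTR genotype, in which Clec4f directs a receptor for diphtheria toxin (DT). All 3 groups therefore carry the receptor: 4 mice on western diet with alcohol (WDA) had serial DT injections (DT livers), 4 on that diet had serial saline injections (saline livers), and 3 were on chow (chow livers). The mice were 8 weeks old when the diets began and stayed on them for 16 weeks, and no injection is named for the chow mice. DT kills a mouse cell that displays the receptor, so a cell that never used the Clec4f promoter is spared by design. New macrophages that enter the emptied niche from blood monocytes gain several of these markers with time, and Timd4 is known as one of the last to be gained.

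Libraries held 43995217 to 58089531 counts. Values are CPM, counts scaled to the size of each library with TMM factors, and errors are the SD over the livers in a group. Each log2 fold change (log2 FC) was tested by edgeR's quasi-likelihood method, adjusted by Benjamini-Hochberg over all genes tested. A gene is said to have risen or fallen, or to be called, where its adjusted p was below 0.05. Nothing in the labels says more than that the livers are separate samples, so the p-values set differences against the spread between these livers. Alb, the main hepatocyte transcript, averaged 54100 ± 7330 CPM in DT livers, 62400 ± 7550 CPM in saline livers (SD, n = 4 each) and 70500 ± 9270 CPM in chow livers (SD, n = 3). The sample labels name whole liver, while the extraction text also describes sorted CD45-positive cells for single-cell work.

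The promoter windows of 5 markers are shown because they span the results: Clec4f, which directs the receptor, Timd4 and Cd163, which fell most in DT livers, Cd5l, which fell least, and Clec1b, which was not called. Each window holds 300 bases that end shortly after the start of the gene in RefSeq on GRCm38.p6, an earlier build than the GRCm39 that the submitters name, and is written 5′ to 3′ on the strand of the gene. Capitals mark matches to GAGGAA (the macrophage factor PU.1), TGCTGA (the core of a MAF site), TGGGAA (RBPJ, which acts in Notch signalling) or CACGTG (MITF and TFE factors), searched on both strands.
Clec4f, chr6:83656067-83656366, strand -: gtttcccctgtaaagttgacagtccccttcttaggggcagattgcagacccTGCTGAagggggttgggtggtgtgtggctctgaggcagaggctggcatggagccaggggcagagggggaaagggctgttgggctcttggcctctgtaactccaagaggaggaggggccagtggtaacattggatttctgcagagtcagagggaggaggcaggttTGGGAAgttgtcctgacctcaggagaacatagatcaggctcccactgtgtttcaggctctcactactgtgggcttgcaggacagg
Timd4, chr11:46810549-46810848, strand +: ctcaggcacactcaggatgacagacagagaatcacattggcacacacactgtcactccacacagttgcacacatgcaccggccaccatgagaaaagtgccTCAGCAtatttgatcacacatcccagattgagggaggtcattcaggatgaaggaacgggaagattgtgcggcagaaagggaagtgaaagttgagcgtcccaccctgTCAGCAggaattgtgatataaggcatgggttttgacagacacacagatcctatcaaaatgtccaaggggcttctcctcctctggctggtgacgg
Cd163, chr6:124304401-124304700, strand +: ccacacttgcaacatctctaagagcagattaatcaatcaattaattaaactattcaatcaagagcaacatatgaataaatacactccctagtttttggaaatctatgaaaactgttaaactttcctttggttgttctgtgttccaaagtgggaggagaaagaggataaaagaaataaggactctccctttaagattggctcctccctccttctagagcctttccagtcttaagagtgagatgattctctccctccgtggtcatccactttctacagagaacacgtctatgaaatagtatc
Cd5l, chr3:87357631-87357930, strand +: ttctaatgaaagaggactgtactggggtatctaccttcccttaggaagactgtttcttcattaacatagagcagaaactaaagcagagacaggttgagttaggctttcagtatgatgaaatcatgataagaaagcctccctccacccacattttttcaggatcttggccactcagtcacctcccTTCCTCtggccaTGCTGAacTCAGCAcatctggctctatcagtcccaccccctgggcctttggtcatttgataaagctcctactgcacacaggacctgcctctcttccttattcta
Clec1b, chr6:129397047-129397346, strand +: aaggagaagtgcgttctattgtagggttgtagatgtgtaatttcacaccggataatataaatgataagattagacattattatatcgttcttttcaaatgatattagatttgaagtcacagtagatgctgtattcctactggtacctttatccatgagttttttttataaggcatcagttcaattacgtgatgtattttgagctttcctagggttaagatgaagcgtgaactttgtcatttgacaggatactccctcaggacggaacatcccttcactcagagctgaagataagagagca

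All 10 markers matched an entry in that promoter table, with 11 windows in all because Folr2 has 2. PU.1 letters were in 5 of the 11 windows, from 5 markers (Vsig4, Cd5l, Marco, Fcna and Adgre4), against 28.3% of the 32851 windows in the table. The MAF core was in 7 of the 11 windows, from 6 markers (Clec4f, Vsig4, Timd4, Cd5l, Folr2 and Fcna), against 19.5% of all windows. RBPJ letters were in 3 of the 11 windows (Clec4f, Marco and Fcna), near the 25.6% of all windows, and CACGTG in 0, against 7.15%. The windows of Cd163 and Clec1b held none of the 4 motifs. No matches to different motifs overlapped in the windows shown.

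In DT livers compared with saline livers, which differ in the injected toxin on the same diet, 9 of the 10 markers fell, 0 rose and 1 (Clec1b) was not called. Of all genes tested 7.62% were called lower and 14.3% higher. The DT and saline livers did not overlap for 8 markers, all lower in DT livers, against 9.97% of all genes. The median log2 FC of the markers was -1.50, against 0.02 over all genes. The size of the fall differed widely, and Cd163 and Timd4 retained 2.07% and 4.6% of the saline level while Cd5l and Clec1b were at 64.4% and 81.7% of it. In whole-liver RNA, fewer cells of a type and less RNA per cell cannot be told apart. Of the 11 refits that left out 1 liver, only the one without DT liver 2 called all 9, and the other 10 called 7 or 8, as Fcna lost its call in 10 and Cd5l in 5.

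**Figure D1:**
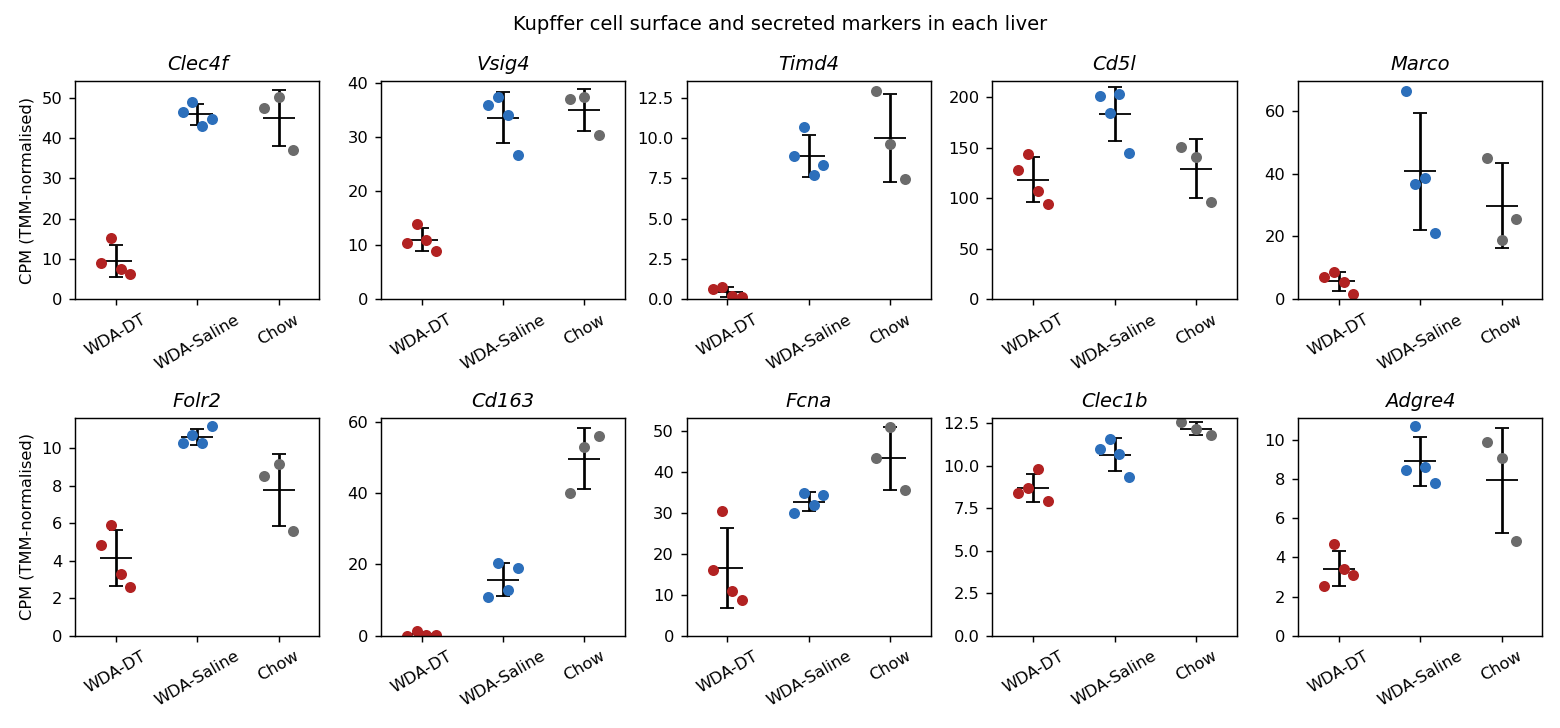
CPM of each marker in each liver (points) for DT livers (red, left), saline livers (blue) and chow livers (grey), with the mean and SD as bars. For 8 markers the 4 DT livers lie below every saline liver, while Fcna and Clec1b overlap.

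Clec4f encodes a C-type lectin receptor of Kupffer cells that binds galactose-bearing glycolipids and glycoproteins. DT livers 1 to 4 held 9.06, 15.2, 7.51 and 6.18 CPM of it, against 46.6, 49.1, 43.1 and 44.9 CPM in saline livers 1 to 4 and 47.5, 50.3 and 37.1 CPM in chow livers 1 to 3. All DT livers were below each of the other 7, but each kept Clec4f RNA, at 19.7%, 33.1%, 16.4% and 13.4% of the saline mean. The log2 FC against saline livers was -2.28 (SE 0.24, adjusted p = 0.00125).

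The receptors for opsonised particles and dying cells fell to different depths. Vsig4 encodes a complement receptor that captures bacteria coated with C3 fragments, and it was at 10.4, 13.9, 10.9 and 8.81 CPM in DT livers, against 35.9, 37.3, 34.0 and 26.7 CPM in saline livers and 36.9, 37.4 and 30.4 CPM in chow livers. DT livers were at roughly the same level as each other and far below both other groups, with a log2 FC of -1.61 against saline livers (SE 0.15, adjusted p = 0.000871). Timd4 encodes a receptor for phosphatidylserine on dying cells and marks long-resident Kupffer cells. It was at 0.627, 0.749, 0.169 and 0.133 CPM in DT livers, against 8.90, 10.7, 7.68 and 8.30 CPM in saline livers and 12.9, 9.64 and 7.48 CPM in chow livers. Timd4 was nearly lost in every DT liver (log2 FC -4.44, SE 0.48, adjusted p = 0.00125), with DT livers 3 and 4 below DT livers 1 and 2.

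Marco, Cd163 and Cd5l encode proteins with scavenger receptor cysteine-rich domains, and these 3 relatives differed widely in how far they fell. Cd163, the receptor that clears haemoglobin bound to haptoglobin, was at 0, 1.25, 0.113 and 0.106 CPM in DT livers, against 11, 20.3, 12.8 and 18.9 CPM in saline livers and 39.9, 53.0 and 56.0 CPM in chow livers. The 3 groups did not overlap, and DT liver 1 held 0 counts of it, which allows up to 0.0448 CPM (3 counts on the same TMM scale, counting error only). The log2 FC of Cd163 against saline livers was -5.59 (SE 0.80, adjusted p = 0.00396), and -7.68 without DT liver 2. Marco, a collagenous receptor for bacteria and particles, was at 7.03, 8.76, 5.39 and 1.70 CPM in DT livers, against 66.3, 36.8, 38.6 and 21.2 CPM in saline livers and 44.9, 18.9 and 25.5 CPM in chow livers. It was the most variable marker among saline livers, with a coefficient of variation of 46.1%, and still did not overlap between DT and saline livers (log2 FC -2.84, SE 0.49, adjusted p = 0.00626). Cd5l, which encodes the secreted apoptosis inhibitor of macrophages, was at 128, 144, 107 and 93.9 CPM in DT livers, against 201, 185, 203 and 145 CPM in saline livers and 151, 141 and 96.2 CPM in chow livers. DT liver 2 lay just under the lowest saline liver (log2 FC -0.63, SE 0.18, adjusted p = 0.0298). The Cd5l call ended without saline livers 1, 2 or 3 or DT livers 3 or 4 in turn (adjusted p = 0.0752, 0.0712, 0.0679, 0.0792 and 0.0825) and under total count scaling (log2 FC -0.32, adjusted p = 0.153).

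Fcna encodes ficolin A, a secreted lectin that starts the lectin pathway of complement. It was at 16.0, 30.4, 11 and 8.77 CPM in DT livers, against 30, 34.8, 31.9 and 34.3 CPM in saline livers and 43.5, 50.9 and 35.5 CPM in chow livers. DT liver 2 was within the saline livers and the other 3 DT livers were below them (log2 FC -0.99, SE 0.31, adjusted p = 0.042). That call ended in 10 of the 11 refits that left out 1 liver (adjusted p = 0.053 to 0.109), and without DT liver 2 it became -1.46 (adjusted p = 0.000195). An antisense gene, Fcnaos, overlaps Fcna in an earlier annotation (GENCODE M21), but held only 4 to 18 counts in DT livers, 5 to 14 in saline livers and 11 to 15 in chow livers.

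Folr2 encodes folate receptor beta, found on resident macrophages of many tissues. It was at 4.84, 5.91, 3.28 and 2.58 CPM in DT livers, against 10.3, 10.7, 10.3 and 11.2 CPM in saline livers and 8.50, 9.19 and 5.58 CPM in chow livers. The saline livers were tightly grouped and above both other groups (log2 FC of DT against saline livers -1.36, SE 0.25, adjusted p = 0.00704). Adgre4 encodes an adhesion G protein-coupled receptor related to F4/80, and was at 2.54, 4.66, 3.39 and 3.09 CPM in DT livers, against 8.44, 10.7, 8.6 and 7.79 CPM in saline livers and 9.86, 9.05 and 4.85 CPM in chow livers. It fell by nearly the same amount as Folr2 (log2 FC -1.38, SE 0.25, adjusted p = 0.00678), and chow liver 3 was close to DT liver 2. Folr2 overlaps an antisense gene, Gm10602, in the same earlier annotation, and the strand setting of the counts is not given in the sources used here. Gm10602 itself held 42 to 130 counts in DT livers, 33 to 58 in saline livers and 39 to 44 in chow livers.

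Clec1b encodes CLEC-2, the podoplanin receptor, which Kupffer cells and platelets share. It was at 8.39, 8.72, 9.81 and 7.91 CPM in DT livers, against 11, 11.6, 10.7 and 9.33 CPM in saline livers and 12.6, 12.2 and 11.8 CPM in chow livers. DT liver 3 was above saline liver 4, so these groups overlapped, and Clec1b was not called (log2 FC -0.29, 95% interval -0.54 to -0.04 before adjustment, adjusted p = 0.0842). Total count scaling turned its direction (log2 FC 0.05, adjusted p = 0.817), with the median of all genes at 0.36 under that scaling. Of the 6 platelet and megakaryocyte genes, 3 were tested and 0 were called by edgeR (0 at an unadjusted p below 0.05, and 0 by DESeq2 and limma-voom), and together the 6 summed to 2.77 to 3.77 CPM in DT livers, 1.50 to 3.29 CPM in saline livers and 2.24 to 3.03 CPM in chow livers. Clec9a, a dendritic cell gene that overlaps Clec1b on the same strand in the earlier annotation, rose (log2 FC 1.12, SE 0.32, adjusted p = 0.0298), a call that ended in 6 of 21 alternatives (adjusted p = 0.0502 to 0.0878). It held 101 to 294 counts in DT livers, against 37 to 89 in saline livers and 73 to 98 in chow livers. How far platelets or reads shared with Clec9a enter the Clec1b value was not tested.

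**Figure D2:**
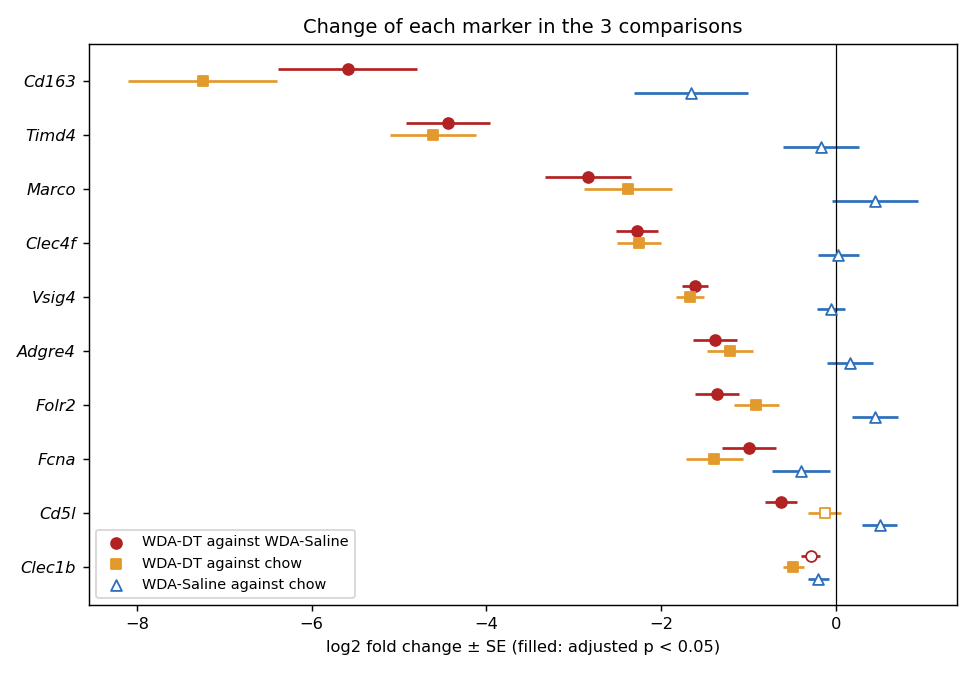
Log2 fold change with its SE (bars) for each marker, ordered by DT against saline livers, in the 3 comparisons, where filled symbols have an adjusted p below 0.05. The values of DT against saline livers run from -5.59 for Cd163 to -0.29 for Clec1b, which was not called, and the 10 open triangles of saline against chow livers run from -1.66 to 0.50.

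In TMM-scaled CPM, the DT livers were ordered in much the same way by most markers. DT liver 2 was the highest of the 4 for 9 markers, with Clec1b as the exception, and DT liver 4 was the lowest for 8, with Cd163 and Adgre4 lowest in DT liver 1. This order depends on the TMM factors. In counts over library totals alone, DT liver 1 was above DT liver 2 for Timd4, Cd5l, Marco and Folr2. DT liver 3 was above DT liver 2 for Vsig4 in those values. In DT liver 2 the markers stood at 7.93% (Cd163) to 92.7% (Fcna) of the saline mean, and in DT liver 4 at 0.674% (Cd163) to 74.2% (Clec1b). DT liver 2 also differed beyond these markers: its TMM factor was 0.9715, against 1.2266 to 1.2995 in the other DT livers and 0.9188 to 0.9721 in saline livers. Genes listed for lipid-associated macrophages summed to 155 CPM in it, within the 103 to 215 CPM of saline livers, and reached 829 CPM in another DT liver. Beyond the change of order without TMM factors, the part of these differences in the marker values was not tested. Among chow livers, chow liver 3 was the lowest for 8 of the 10 markers.

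**Figure D3:**
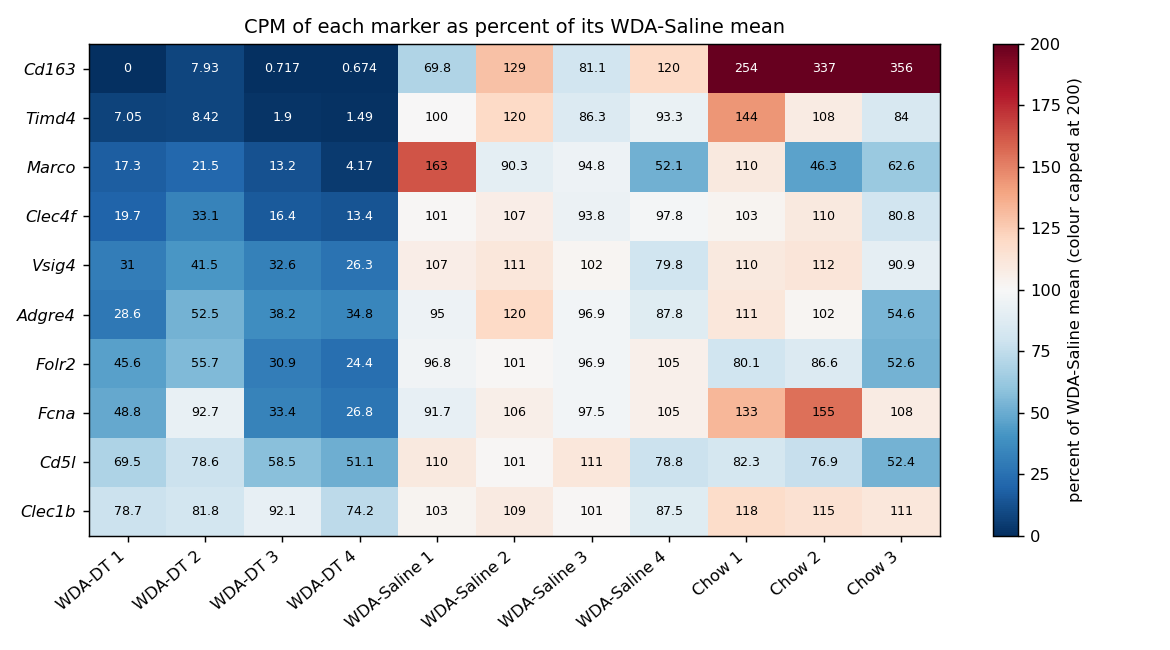
CPM of each marker (rows) in each liver (columns) as percent of its mean over the 4 saline livers, with a capped colour scale. DT liver 2 has the highest percent among DT livers in 9 rows, and the chow livers reach 254 to 356 in the Cd163 row.

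To ask whether the other 9 markers moved by the same amount as Clec4f, the log2 ratio of each to Clec4f in the same liver was compared between DT and saline livers with a two-sided exact permutation test over livers, after adding 2 counts. For 8 of the 9 ratios the groups did not overlap and p was 0.0286, unadjusted over the 9 and the smallest that 4 against 4 livers can give. The share of all genes with no overlap in this ratio was not computed, so the 8 are not shown to be particular to these markers. Relative to Clec4f, 2 markers were lower in DT livers. The Cd163 ratio averaged -5.75 ± 1.90 in DT livers and -1.59 ± 0.40 in saline livers, and the Timd4 ratio -4.64 ± 0.73 in DT livers and -2.37 ± 0.13 in saline livers (SD, n = 4 each). DT liver 1 held 0 counts of Cd163, so its ratio of -8.2 rests on the 2 counts added. The Cd163 difference was -4.17, and it ran from -4.9 to -3.35 when each of the 8 livers was left out in turn. Over all 13 alternatives it ran from -5.91 to -3.3, where -5.91 comes from another gene, Adgre1, in place of Clec4f.

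Relative to Clec4f, 6 markers were higher in DT livers, by 0.74 for Vsig4, 0.94 for Folr2, 0.96 for Adgre4, 1.20 for Fcna, 1.72 for Cd5l and 2.06 for Clec1b on the log2 scale. Marco was the exception, at -0.87 ± 0.68 in DT livers and -0.29 ± 0.66 in saline livers (difference -0.58, exact p = 0.314), and its livers overlapped. The comparison depends on the partner gene. As Clec4f fell in DT livers (log2 FC -2.28), a gene that did not change would also be higher relative to it. Clec4f itself fell by 1.75 relative to Adgre1, the general macrophage gene for F4/80 (exact p = 0.0286). With Adgre1 as partner, Vsig4, Timd4, Marco and Cd163 were lower in DT livers (exact p = 0.0286 each), with differences of -1, -4.02, -2.33 and -5.91, while that of Cd5l was -0.03 (exact p = 0.943).

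**Figure D4:**
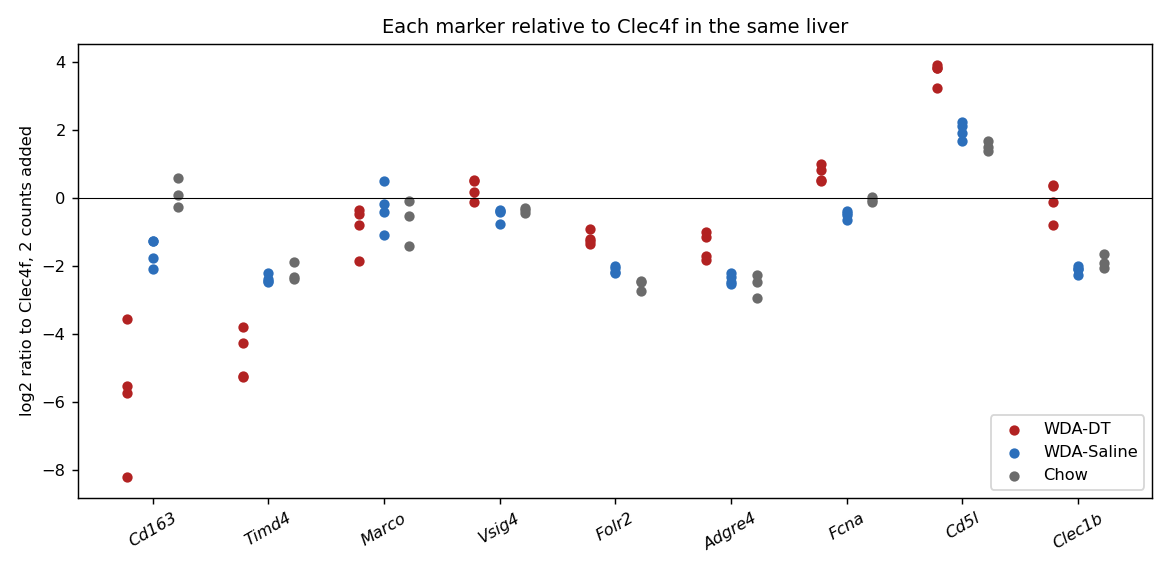
Log2 ratio of each marker to Clec4f within each liver, for DT (red, left), saline (blue) and chow (grey) livers, ordered by the difference of DT and saline means. In the 2 columns at the left, Cd163 and Timd4, the DT points lie below the saline points, and in the 6 columns from Vsig4 to Clec1b they lie above them.

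In saline livers compared with chow livers, 0 of the 10 markers were called by edgeR, against 5.58% of all genes. At an unadjusted p below 0.05 there were 2 (Cd163 and Cd5l), DESeq2 called 0 and limma-voom called 1. The median log2 FC of the markers was -0.01, with 5 estimates above 0 and 5 below. Clec4f (0.03, 95% interval -0.50 to 0.57) and Vsig4 (-0.06, -0.42 to 0.29) had the values closest to 0, and the interval of Timd4 was wider (-0.17, -1.10 to 0.77). Cd163 stood apart from them: its saline livers were at 22.1% to 41.0% of the chow mean, with no overlap, and the log2 FC was -1.66 (SE 0.65, adjusted p = 0.17). limma-voom called it lower (adjusted p = 0.0116), as did edgeR without DT liver 2 (adjusted p = 0.00832) and with only these 2 groups in the fit (adjusted p = 0.0049). That last fit also called Fcna lower (log2 FC -0.39, adjusted p = 0.0376).

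Cd163, Fcna and Clec1b were lower in every saline liver than in every chow liver, against 15.6% of all genes, and Folr2 was higher in every saline liver, against 14.8% of all genes. For Fcna and Clec1b this depends on the TMM factors, as their counts over library totals alone overlapped. Under total count scaling their log2 FC were -0.28 and -0.07 (edgeR adjusted p = 0.6 and 0.834). Cd5l averaged 184 ± 27.2 CPM in saline livers (SD, n = 4) and 130 ± 29.3 CPM in chow livers (SD, n = 3), a log2 FC of 0.50 that was not called (SE 0.20, adjusted p = 0.168). Effects of the injections and of the diet cannot be told apart here if chow mice had no injection.

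In DT livers compared with chow livers, 9 of the 10 markers fell, 0 rose and Cd5l was not called, and 8.16% of all genes were called lower. The groups did not overlap for 8 markers, lower in DT livers, against 14.4% of all genes. This comparison shares the DT livers with the one against saline livers, so the counts are not independent. Cd163 had a log2 FC of -7.25 (SE 0.85, adjusted p = 0.0013) and was at 0.657% of the chow level, and Timd4 of -4.61 (SE 0.49, adjusted p = 0.000903). Clec4f (-2.25), Marco (-2.38), Vsig4 (-1.67), Fcna (-1.39) and Adgre4 (-1.21) fell as well (adjusted p = 0.000903, 0.00857, 0.000549, 0.0137 and 0.00927). Cd5l was at 118 ± 22.2 CPM in DT livers (SD, n = 4) and 130 ± 29.3 CPM in chow livers (SD, n = 3), with a log2 FC of -0.13 (95% interval -0.56 to 0.30, adjusted p = 0.656).

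Folr2 (-0.91, adjusted p = 0.0296) and Clec1b (-0.49, adjusted p = 0.0164) were the weaker calls against chow livers. The Folr2 call ended without chow livers 1 or 2 or DT livers 3 or 4 in turn (adjusted p = 0.098, 0.115, 0.0762 and 0.0722), under total count scaling (log2 FC -0.48, adjusted p = 0.112) and in a fit of DT and chow livers alone (adjusted p = 0.107). The call of Clec1b ended without chow livers 1 or 2 or DT liver 4 (adjusted p = 0.0638, 0.0555 and 0.0506), under total count scaling (log2 FC -0.02, adjusted p = 0.913), with no filter, with only the compared groups and with the replicate block (adjusted p = 0.0527, 0.0603 and 0.0582). The Fcna call ended without chow liver 2 and with only the compared groups (adjusted p = 0.0549 and 0.0553).

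Per kilobase of annotated exon, Cd5l was the most abundant marker in every group, at 58.1 ± 10.9 CPM per kb in DT livers, 90.2 ± 13.3 CPM per kb in saline livers (SD, n = 4 each) and 63.6 ± 14.4 CPM per kb in chow livers (SD, n = 3). In saline livers Fcna (23.8), Vsig4 (22.6), Marco (21.2) and Clec4f (18.6 CPM per kb) followed, and each overlapped its neighbour in that order. Folr2 (6.86 CPM per kb) stood clear of both its neighbours, and Timd4 (4.09), Cd163 (2.88), Adgre4 (2.54) and Clec1b (2.09 CPM per kb) again overlapped one after another. In chow livers Cd163 was at 9.09 ± 1.57 CPM per kb, above Folr2 (5.02 ± 1.24). In DT livers Cd163 (0.0672 ± 0.108) and Timd4 (0.193 ± 0.145 CPM per kb) were the least abundant, below Adgre4 (0.979) and Clec1b (1.71 CPM per kb). Exon lengths come from the earlier annotation, where the 5103 exon bases of Clec1b may include some shared with Clec9a, so its place in the order is uncertain.

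A list of 10 other genes used as Kupffer cell markers did not fall together with these 10. In DT against saline livers 0 of the 10 were called by edgeR (3 at an unadjusted p below 0.05, 2 by DESeq2 and 0 by limma-voom, median log2 FC 0.03), among them Slc40a1, the iron exporter ferroportin (-0.46, adjusted p = 0.0805), C6, a complement component (-0.53, adjusted p = 0.136), Vcam1, an adhesion molecule (1.07, adjusted p = 0.0834), and Pltp, a phospholipid transfer protein (0.37, adjusted p = 0.0692). Over all genes tested 7.62% were called lower and 14.3% higher. Without DT liver 2, 2 genes of this list were called higher and 2 lower, and each of the 10 refits without another liver called 0. Hepatocytes, endothelium and other cells of the liver also express several of these genes, and C6 and Nr1h3 are examples in hepatocytes. The list summed to 496 to 547 CPM in DT livers, 525 to 624 CPM in saline livers and 520 to 599 CPM in chow livers.

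Of 12 general macrophage genes, 2 rose (Cd14, 1.54, and Cd68, 0.84), Adgre1 fell (-0.60) and 9 were not called (adjusted p = 0.0316, 0.0425 and 0.0304 for those 3), with a median log2 FC of 0.19. Over all genes tested 14.3% were called higher and 7.62% lower, so the counts in this list are near those shares. Over 21 alternatives Cd14 lost its call in 10, Cd68 in 13 and Adgre1 in 8. Refits without 1 liver called between 0 and 6 genes of the list, with 0 without saline livers 1 or 2 or DT livers 3 or 4, and 6 without DT liver 2 (5 higher and 1 lower). The list summed to 472 to 771 CPM in DT livers, 464 to 707 CPM in saline livers and 519 to 597 CPM in chow livers. Of 8 monocyte genes 2 rose, Cx3cr1 (3.23, adjusted p = 0.00673), a chemokine receptor, and Itgam (2.03, adjusted p = 0.00921), the integrin CD11b. Without DT liver 2 this was 4 of the 8, and 2 without each other liver. The list summed to 12.5 to 45.5 CPM in DT livers, 7.42 to 15.9 CPM in saline livers and 4.82 to 6.82 CPM in chow livers.

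Of 8 genes of lipid-associated macrophages 6 rose, with Trem2, a lipid receptor, at 2.70 and Spp1, osteopontin, at 3.10 (adjusted p = 0.00774 and 0.0102). Over all genes 14.3% were called higher. Refits without 1 liver called 4 to 7. The list summed to 155 to 829 CPM in DT livers, 103 to 215 CPM in saline livers and 39.1 to 67.1 CPM in chow livers. Spp1 and Lpl had the highest means of the list in DT livers, at 195 and 138 CPM. Whole-liver RNA does not show which cells these transcripts came from. The median log2 FC was 2.00 in that list and 0.89 in the monocyte list, against 0.02 over all genes.

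Of 10 genes of sinusoidal endothelium, whose cells border the Kupffer cells, 3 fell (Kdr, -0.55, Oit3, -0.49, and Stab2, -0.40) and 1 rose (Stab1, 0.50), with adjusted p of 0.0103, 0.0126, 0.0404 and 0.0234. The median log2 FC of the list was -0.43, against 0.02 over all genes. Over all genes 7.62% were called lower and 14.3% higher. Stab2 lost its call in 13 of 21 alternatives and Stab1 in 4, and under total count scaling 0 genes of the list were called lower and 1 higher. Without 1 liver the list had 2 to 8 calls, with 2 without saline livers 1 or 3 or DT livers 3 or 4, and 8 without DT liver 2. The list summed to 392 to 455 CPM in DT livers, 483 to 528 CPM in saline livers and 499 to 550 CPM in chow livers. Dendritic cell genes (1 of 6 called, Clec9a), neutrophil genes (1 of 5 called, Retnlg, 1.86, adjusted p = 0.048) and hepatocyte genes (0 of 6 called by edgeR, DESeq2 or limma-voom, 0 at an unadjusted p below 0.05) had median log2 FC of 1.01, 0.73 and -0.22. In lists this short, the dendritic cell and neutrophil counts are near the 14.3% of all genes called higher. Dendritic cell genes summed to 9.05 to 21.2 CPM in DT livers, 9.07 to 10.6 CPM in saline livers and 8.24 to 9.43 CPM in chow livers. Retnlg lost its call in 14 of 20 alternatives, among them 10 of the 11 refits without 1 liver (adjusted p = 0.0608 to 0.166). Over those refits 0 to 5 dendritic, 0 to 2 neutrophil and 0 to 2 hepatocyte genes were called, and the highest number of each came without DT liver 2. No dendritic cell gene was called without saline livers 2 or 4 or DT livers 3 or 4, and no neutrophil gene in the 10 refits that kept DT liver 2. Whether shifts in these cells contribute to the marker values was not tested.

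**Figure D5:**
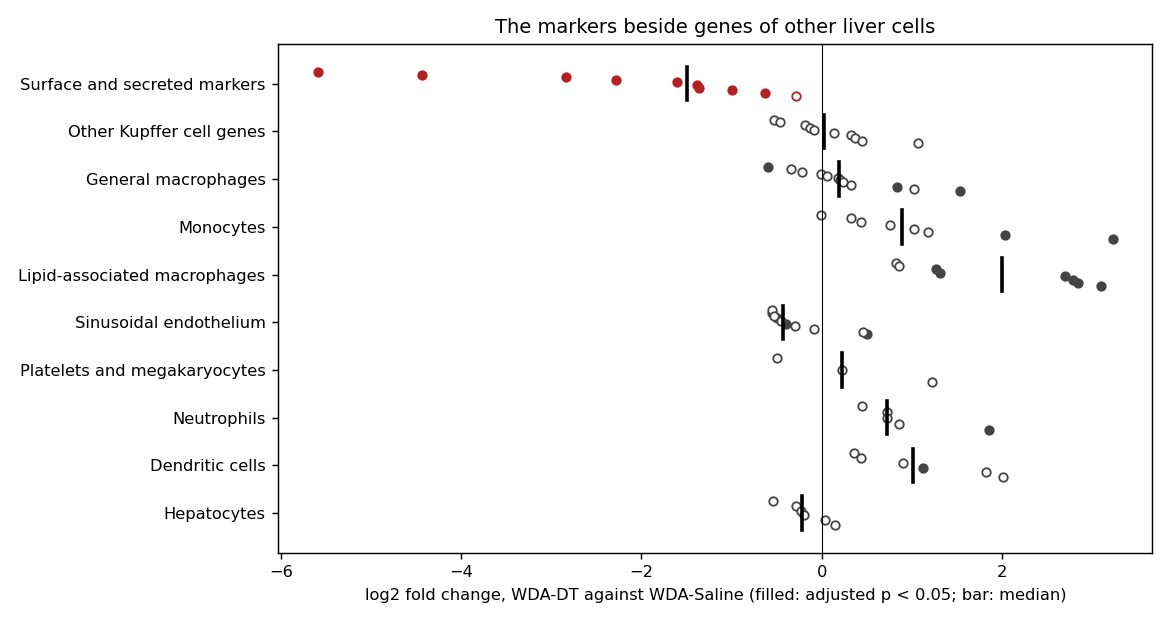
Log2 fold change of DT against saline livers for the 10 markers (red, top) and for genes of 9 lists of liver cells (rows), 1 point per tested gene, filled where the adjusted p was below 0.05, with the median as a bar. The markers have a median of -1.50, the other Kupffer cell genes of 0.03 and the lipid-associated macrophage genes of 2.00.

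The genes with a profile over the 11 livers most like that of Clec4f were sought among 12252 tested genes outside the 10 markers whose log2 CPM averaged 0 or more. Likeness was the root mean square difference between 2 log2 CPM profiles, each centred on its own mean. The choice used these same livers, and Clec4f fell in the DT livers. A fall of the chosen genes in DT livers was therefore largely set by the choice, and their p-values are no separate evidence. Pcolce2, which encodes an enhancer of procollagen processing, was closest (0.36), at 0.424 to 0.687 CPM in DT livers, 1.79 to 2.85 CPM in saline livers and 1.43 to 2.52 CPM in chow livers. Its log2 FC in DT against saline livers was -2.12 (SE 0.28, adjusted p = 0.00321). Among the markers only Vsig4 (0.39) came nearly as close, followed by Fcna (0.54), Adgre4 (0.57), Folr2 (0.58), Marco (0.62), Cd5l (0.97), Clec1b (1.00), Timd4 (1.18) and Cd163 (2.60).

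The other genes closest to Clec4f were Cyp2e1 (0.42), a cytochrome P450 that oxidises ethanol in hepatocytes, Adra1a (0.42), an adrenergic receptor, Chrna2 (0.48), a subunit of nicotinic receptors, Fabp1 (0.48), the fatty acid binding protein of hepatocytes, Ces1f (0.50), a carboxylesterase, and the predicted genes Gm32281 (0.50) and Gm10319 (0.51). Cyp2e1 ranged from 1920 to 9730 CPM in DT livers, 10300 to 13200 CPM in saline livers and 11300 to 14200 CPM in chow livers, a log2 FC of -1.50 in DT against saline livers (SE 0.45, adjusted p = 0.0367). Of the 11 refits that left out 1 liver, only the one without DT liver 2 called Cyp2e1 (log2 FC -2.35, adjusted p = 1.32e-05).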

How the data were processed

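FastQC, STAR and featureCounts were the authors' tools and GRCm39 their build, per the submitters' processing notes. Tool versions, annotation, strand setting and the treatment of mates are not given in the sources used here. The deposited values are raw counts per gene by the authors. Of counts from 2 to 40, 80.5% to 85.9% were even, so halved counts were tried.

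Genes were kept with filterByExpr, scaled by TMM and fitted with edgeR 4.0.16 (R 4.3.3, limma 3.58.1) in a robust fit of 1 mean per group over all 11 livers (8 residual degrees of freedom). The common biological coefficient of variation was 30.1%. All groups share this estimate of spread, so DT livers bear on the test of saline against chow livers. Tests were two-sided, adjusted by Benjamini-Hochberg over 17038 genes. A prior count of 2 was used for log2 CPM. Alternatives were other scalings, DESeq2 1.42.0, limma-voom, other filters, fewer groups, the replicate number as a block, halved counts and each liver left out; running them for the lists and for the genes named outside the 10 markers was added after the data were seen.

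The 10 markers and the lists were chosen with earlier results of these data known. From each list up to 4 genes with the smallest p in DT against saline livers could be named, and the 8 genes most like Clec4f. Reads shared between overlapping genes could not be separated. Libraries were checked for duplicates and none was found.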

Additional observations from a re-analysis of the deposited data

Results flagged for a closer look

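In 38 sets of 4 livers (10 markers and 9 ratios to Clec4f, in DT and in saline livers), 3 held a liver far from the other 3 by Dixon's test at the 95% level, where chance gives about 1 set in 20. Cd163 in DT liver 2 was at 1.25 CPM, above the 0 to 0.113 CPM of the other DT livers. The log2 ratio of Cd5l to Clec4f was lowest in DT liver 2, at 3.24. The log2 ratio of Vsig4 to Clec4f was lowest among saline livers at -0.75, in saline liver 4.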

How the results depend on the processing

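The 10 markers gave 7 to 9 calls in DT against saline livers and 6 to 9 in DT against chow livers over 21 alternatives each, always lower. Clec4f, Vsig4, Timd4, Marco, Folr2, Cd163 and Adgre4 stayed called in all 21 in DT against saline livers, while Fcna lost its call in 13 and Cd5l in 6. Against chow livers Clec1b lost it in 7, Folr2 in 6 and Fcna in 2. In saline against chow livers the calls were 0 to 1 without 1 liver, 1 by limma-voom and 2 with only the compared groups. Counts over all genes moved more: 3734 for DT against saline livers became 5629 under total count scaling and 1779 to 6828 without 1 liver. For saline against chow livers 950 became 1831 by DESeq2, 3035 with only the compared groups, 559 with the replicate block and 288 to 1924 without 1 liver. For DT against chow livers 3919 became 6536 under total count scaling, 2083 with only the compared groups, 2210 with the replicate block and 1814 to 6831 without 1 liver. The cause was not tested.

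Total count scaling moved the median of all genes from 0.02 to 0.36 in DT against saline livers, from 0 to 0.13 in saline against chow livers and from -0.02 to 0.44 in DT against chow livers. Called genes that were higher were then 92.1%, 67% and 94.8%, against 65.2%, 43.9% and 64.5% with TMM, and 75.7% and 77.6% with upper quartile factors in the 2 comparisons of DT livers. With Adgre1 in place of Clec4f as partner, the ratio differences of Vsig4, Cd5l, Folr2, Fcna and Adgre4 turned to -1, -0.03, -0.81, -0.54 and -0.79, that of Clec1b became 0.32 and that of Marco -2.33, which follows from Adgre1 falling less than Clec4f. Livers with the same replicate number did not deviate together (correlations of -0.16 to 0.18), so the numbers are not taken to pair livers. With the replicate block 9, 0 and 8 markers were called in the 3 comparisons, and Clec1b lost its call against chow livers (adjusted p = 0.0582). Values of Cd163 and Timd4 in DT livers rest on few counts, which limits their precision.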
